A study of Rattus norvegicus with 63 samples.

Results

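Long daily access to cocaine was set against short access in the lateral hypothalamus of the rat, on 8 oligonucleotide arrays out of 63 in the series. The arrays were taken by their titles, 4 of long access and 4 of short access, and every probe set that is not a control was considered. Of these 1263 probe sets, 719 had a mean signal of at least 100 over the 8 arrays and were tested, and the other 544 were too dim. Long access meant 6 h a day, and short access 1 h a day, of self-administered cocaine at 0.25 mg per intravenous injection. Rats with no access (0 h, never given cocaine) had 4 arrays of the same region, which serve here only to place the levels. The design text gives 8 rats for each access group, and 5 other brain regions of these groups were also profiled. Strain, sex, age and the number of days of access are not given in the sources used here. Nor do the labels state whether an array holds RNA of 1 rat or of several, so p-values measure the spread between these arrays, which may be technical.

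The lateral hypothalamus drives feeding, arousal and reward seeking through neurons that release orexin, melanin-concentrating hormone, GABA or glutamate, and it sends axons to the dopamine neurons of the ventral tegmental area. Large bundles of myelinated fibres run through it, so that a dissected piece holds oligodendrocytes and astrocytes beside the neurons. In rats, cocaine intake is known to escalate when daily access is long and to stay stable when it is brief. The array was built from genes of the nervous system, with many channels, receptors and synaptic proteins. In a piece of tissue, fewer cells of a type and less RNA per cell cannot be told apart.

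The hypothalamic peptides oxytocin, vasopressin and galanin were bright on all 8 arrays. Values here and below are log2 of a signal rescaled to a trimmed mean of 500 on each array, with a floor of 5 (a signal of 32). Oxytocin (Oxt) averaged 13.10 ± 0.08 in long access arrays and 13.03 ± 0.13 in short access arrays (SD, n = 4 each), vasopressin (Avp) 13.01 ± 0.22 and 13.31 ± 0.30, and galanin (Gal) 9.71 ± 0.22 and 9.60 ± 0.19. None of the 3 passed the test between the groups, though Avp was lower in a fit that pairs arrays of the same replicate number (adjusted p = 0.00913). The orexin and melanin-concentrating hormone precursors, which define the lateral part of the hypothalamus, had no probe set under their gene symbols on the array. Arrays of 1 group correlated at 0.972 to 0.984 over probe sets and arrays of different groups at 0.958 to 0.977. The median signal was 143 ± 10.9 in long access arrays and 130 ± 4.04 in short access arrays (exact two-sided permutation test, p = 0.0286, the smallest that 4 against 4 can give, adjusted p = 0.171 over 6 measures). The log2 ratio of the 3′ to the 5′ probe sets of actin, a sign of RNA length, was 0.20 ± 0.07 with long access and 0.36 ± 0.08 with short access (exact p = 0.0571, adjusted p = 0.171).

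The potassium channel gene Kcnj10, the adhesion gene Nlgn3 and the spine gene Synpo had the largest rises with long access, and the peptide gene Cck, the complement gene C4b and the calcium channel gene Cacna1a the largest falls. Of 719 probe sets tested, 77 passed an adjusted p under 0.05 (limma with Benjamini-Hochberg adjustment), which is 10.7%. Higher with long access were 48 (6.68%) and lower were 29 (4.03%). They stood for 62 named genes, 40 higher and 23 lower, with the G protein subunit Gnb1 in both, and 5 called probe sets had no name. Differences of at least 1.5-fold were found for 31 of the 77 and of at least 2-fold for 9. The median difference was 0.61 (log2) over the higher calls and -0.41 over the lower ones, beside 0.02 over all probe sets tested. The groups did not overlap, with all long access arrays on top, for 68 probe sets (9.46%), and with all of them below for 61 (8.48%). Fitted with the replicate number as a block, 135 probe sets passed, 73 higher and 62 lower, all 77 among them. With the actin ratio of each array as a covariate 0 passed (limma, 111 at an unadjusted p under 0.05). All 77 kept their direction in that fit, with a median difference 1.03 times and a median standard error 1.64 times those without the covariate, and the part of RNA quality in the calls was not tested. Leaving out long access replicate 1, 2 or 3 gave 41, 37 or 47 calls and leaving out replicate 4 gave 64. Leaving out short access replicate 1, 2, 3 or 4 gave 45, 36, 44 or 38 calls.

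**Figure D1:**
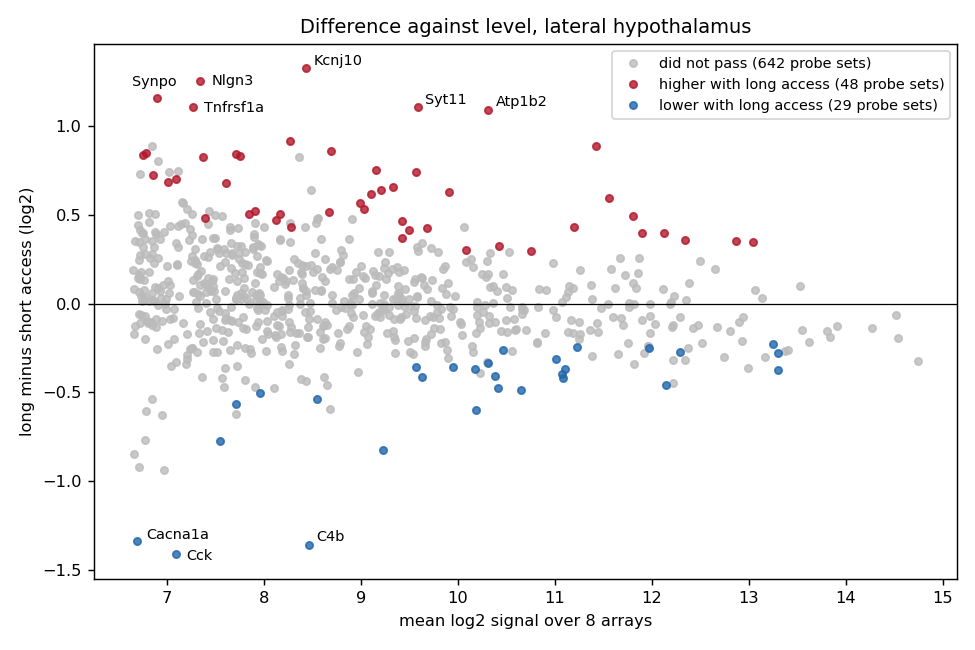
Each point is 1 of 719 probe sets, with its mean log2 signal over the 8 arrays on the horizontal axis and the difference of long minus short access (log2) on the vertical axis. Red points are the 48 higher and blue points the 29 lower probe sets at an adjusted p under 0.05, grey points did not pass, and the 9 calls of at least 2-fold are named.

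Kcnj10 had the largest rise of all named genes. It encodes the inward rectifier through which astrocytes and oligodendrocytes take up potassium. Its log2 signal was 9.05, 9.08, 9.13 and 9.12 in long access arrays, against 7.52, 7.74, 7.31 and 8.51 in short access arrays. The long access arrays lay close together above all short access arrays, of which replicate 4 was the highest. Kcnj10 was 2.51-fold higher with long access (difference 1.33 ± 0.21 log2, SE; limma, adjusted p = 0.00346), and its other probe set was higher by 0.85 ± 0.15. Atp1b2, the beta subunit of the sodium pump found mainly in glia, had 10.81, 11.16, 10.62 and 10.85 in long access arrays, against 9.70, 9.96, 9.47 and 9.93 in short access arrays. The groups were well apart. It was 2.13-fold higher (adjusted p = 0.000972), with its other probe set higher by 0.89 ± 0.14 (adjusted p = 0.00334). Both genes stayed past the threshold whichever of the 8 arrays was left out. Their promoters are shown because each gene rose by both of its probe sets. The 250 bases before the annotated start are taken from RefSeq's GRCr8 assembly, Kcnj10 at chr13:87334260-87334509 on the plus strand and Atp1b2 at chr10:54823709-54823958 on the minus strand, written 5′ to 3′ along the gene. Capitals mark a GC box (GGGCGG on either strand), the letters TGACG of a cyclic AMP response element (either strand) and TATAAA (gene strand).
Kcnj10: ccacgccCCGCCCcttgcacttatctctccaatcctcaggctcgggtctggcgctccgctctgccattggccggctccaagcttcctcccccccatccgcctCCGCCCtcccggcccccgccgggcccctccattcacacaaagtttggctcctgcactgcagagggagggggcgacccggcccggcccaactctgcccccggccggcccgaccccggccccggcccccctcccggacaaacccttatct
Atp1b2: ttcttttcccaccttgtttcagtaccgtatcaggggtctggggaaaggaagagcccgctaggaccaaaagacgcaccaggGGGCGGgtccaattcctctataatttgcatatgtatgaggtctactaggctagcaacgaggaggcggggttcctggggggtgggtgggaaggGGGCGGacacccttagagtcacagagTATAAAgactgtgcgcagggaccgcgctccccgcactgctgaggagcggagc
Each of these stretches holds 2 GC boxes, and Atp1b2 has a TATAAA that begins 52 bases before the start. A GC box stood in 18 of 29 promoters of higher genes (62.1%), in 11 of 16 of lower genes (68.8%), in 187 of 349 of all genes tested (53.6%) and in 32.4% of all rat promoters in the table. These matches describe the letters and are not shown to be bound.

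Some potassium channel genes were higher with long access. For each gene 1 probe set was taken, the brightest, and 5 of the 20 potassium channel genes tested were higher and 1 lower, with a median difference of 0.14. Kcnj11 was lower as well with the replicate block (adjusted p = 0.0436). Over all 453 genes taken this way 31 were higher and 17 lower, or 44 and 41 with the replicate block, and the median was 0.01. Kcnc4, a fast voltage-gated channel, had 9.26, 9.14, 8.89 and 9.19 in long access arrays, against 8.34, 8.46, 7.88 and 8.37 in short access arrays. All long access arrays stood above all short access arrays, and the gene was 1.81-fold higher (adjusted p = 0.00346). Kcna6, a delayed rectifier of the Shaker family, was 1.80-fold higher (adjusted p = 0.0164) and its other probe set 1.78-fold. Kcnk1, a background channel, was higher by 0.53 ± 0.11 and Kcnq3, which carries the M-current that damps repetitive firing, by 0.50 ± 0.15. Kcnc1, another fast channel, was lower by -0.36 ± 0.10 (adjusted p = 0.0466). Of these, Kcnc4, Kcna6 and Kcnk1 passed whichever array was left out, while Kcnq3 and Kcnc1 failed in 7 of 8 such fits, with an adjusted p of up to 0.133 and 0.105.

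Of 7 sodium channel genes tested 3 were higher with long access and none was lower, beside 31 higher and 17 lower of all 453 genes. Scn8a, the alpha subunit at the axon's initial segment and nodes, had 7.80, 7.77, 7.71 and 7.82 in long access arrays, against 6.97, 6.92, 7.10 and 6.82 in short access arrays. The spread within each group was small beside the gap, and Scn8a was 1.77-fold higher (0.82 ± 0.13, adjusted p = 0.00346). Scn2a, another alpha subunit of axons, was higher by 0.66 ± 0.14 (adjusted p = 0.0164) and the auxiliary subunit Scn2b by 0.84 ± 0.24 (adjusted p = 0.0467). The other 4, Scn1a, Scn3a, Scn4a and Scn7a, differed by -0.03 to 0.01 and did not pass. Scn8a held in all 8 left-out fits, Scn2a was lost without long access replicate 2 (adjusted p = 0.0537), and Scn2b was lost in 7 of 8, with an adjusted p of up to 0.117. Among 8 ion pump genes Atp2b2, a calcium pump of the plasma membrane, was higher beside Atp1b2, by 0.37 ± 0.10 (adjusted p = 0.0436), though 3 other probe sets of it did not pass, and it was lost in 7 of 8 left-out fits (adjusted p up to 0.110). None of the 9 calcium channel genes passed by its brightest probe set.

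Several genes for proteins of the synaptic vesicle were higher with long access. Of 23 vesicle and SNARE genes tested, 6 were higher and 1 was lower, the median difference was 0.20, and 17 of the 23 were above 0. Among all 453 genes taken this way 31 were higher, 17 were lower and 241 were above 0. Syt11, a synaptotagmin that does not sense calcium, had the smallest p of all probe sets, with 10.22, 10.26, 9.90 and 10.17 in long access arrays, against 8.96, 9.17, 8.91 and 9.08 in short access arrays. The groups lay far apart, and Syt11 was 2.15-fold higher (1.11 ± 0.11, adjusted p = 0.000216). Syt3, a calcium sensor of the same family, had 9.54, 9.55, 9.33 and 9.68 with long access, against 8.67, 8.68, 8.82 and 8.94 with short access. It too was apart without overlap, at 1.68-fold (adjusted p = 0.00183). The vesicle GTPase Rab3a, which readies vesicles for release, had 11.76, 11.93, 11.76 and 11.96 in long access arrays, against 11.23, 11.21, 11.35 and 11.26 in short access arrays. Synaptophysin (Syp), the abundant vesicle membrane protein, had 11.97, 12.08, 12.05 and 12.12, against 11.53, 11.61, 11.55 and 11.56. Neither gene overlapped between the groups, and the rises were 1.51-fold for Rab3a (adjusted p = 0.000972) and 1.41-fold for Syp (adjusted p = 0.000975). Syt11, Syt3, Rab3a and Syp each passed in all 8 left-out fits. Synapsin 1 (Syn1), which tethers vesicles to actin, was higher by 0.29 ± 0.08 and beta-synuclein (Sncb) by 0.64 ± 0.18, but they were lost in 7 and 6 of the 8 such fits, at an adjusted p of up to 0.107 and 0.117. Gap43, a growth cone protein, was lower by -0.25 ± 0.06 (adjusted p = 0.0358) and was lost in 7 of 8. The syntaxin gene Stx12, which the list does not hold, was also lower, by -0.34 ± 0.09 (adjusted p = 0.0453), and was lost in all 8. A dimmer Stx12 probe set, at 0.33 ± 0.15, did not pass (adjusted p = 0.207). The promoters of Syt11 (chr2:176529776-176530025, minus strand) and Syp (chrX:17536450-17536699, minus strand), marked as above, are given for the 2 vesicle genes on which the comparisons turn, the smallest p within this region and the smallest p against other regions.
Syt11: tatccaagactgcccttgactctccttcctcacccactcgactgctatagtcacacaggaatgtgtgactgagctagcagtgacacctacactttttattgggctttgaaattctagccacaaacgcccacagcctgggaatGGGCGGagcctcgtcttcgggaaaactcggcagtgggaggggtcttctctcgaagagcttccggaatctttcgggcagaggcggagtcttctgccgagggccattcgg
Syp: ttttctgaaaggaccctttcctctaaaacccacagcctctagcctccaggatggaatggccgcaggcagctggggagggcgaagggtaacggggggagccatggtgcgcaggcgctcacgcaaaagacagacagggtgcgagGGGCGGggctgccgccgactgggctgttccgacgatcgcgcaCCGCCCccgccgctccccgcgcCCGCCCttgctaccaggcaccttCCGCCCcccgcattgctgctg
Syt11 has 1 GC box in these bases and Syp has 4, and neither has a TATAAA or TGACG.

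Postsynaptic and adhesion proteins gave a few large rises. Neuroligin 3 (Nlgn3), which binds neurexins across the synapse, had 7.84, 8.40, 7.87 and 7.76 in long access arrays, against 6.74, 6.62, 6.32 and 7.17 in short access arrays. No arrays overlapped, and Nlgn3 was 2.39-fold higher (1.25 ± 0.21, adjusted p = 0.00355), also with each array left out. Its partner neurexin 2 (Nrxn2) was higher by 0.30 ± 0.08 and the neurexin ligand Nxph4 by 0.52 ± 0.14, but they were lost in 7 and 6 of the 8 left-out fits, at an adjusted p of up to 0.0768 and 0.105. The neuronal pentraxin receptor Nptxr, which clusters AMPA receptors, had 8.76, 8.78, 8.61 and 8.72 with long access, against 7.83, 7.97, 7.70 and 7.71 with short access. By this probe set it was 1.89-fold higher (adjusted p = 0.000972), while a brighter one differed by -0.02 ± 0.11 and did not pass. Of 17 adhesion and pentraxin genes taken by their brightest probe set, only Nlgn3 passed, beside 31 higher and 17 lower of all 453 genes. The syndecan Sdc3 was higher too with the replicate block (adjusted p = 0.0323). Synaptopodin (Synpo), an actin-binding protein of dendritic spines, had 7.51, 7.56, 7.59 and 7.24 in long access arrays, against 5.52, 6.12, 7.23 and 6.40 in short access arrays. The short access arrays were spread widely, replicate 3 almost reaching the long access arrays, and the rise of 2.23-fold (adjusted p = 0.0382) was lost in 6 of 8 left-out fits (adjusted p up to 0.0965).

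**Figure D2:**
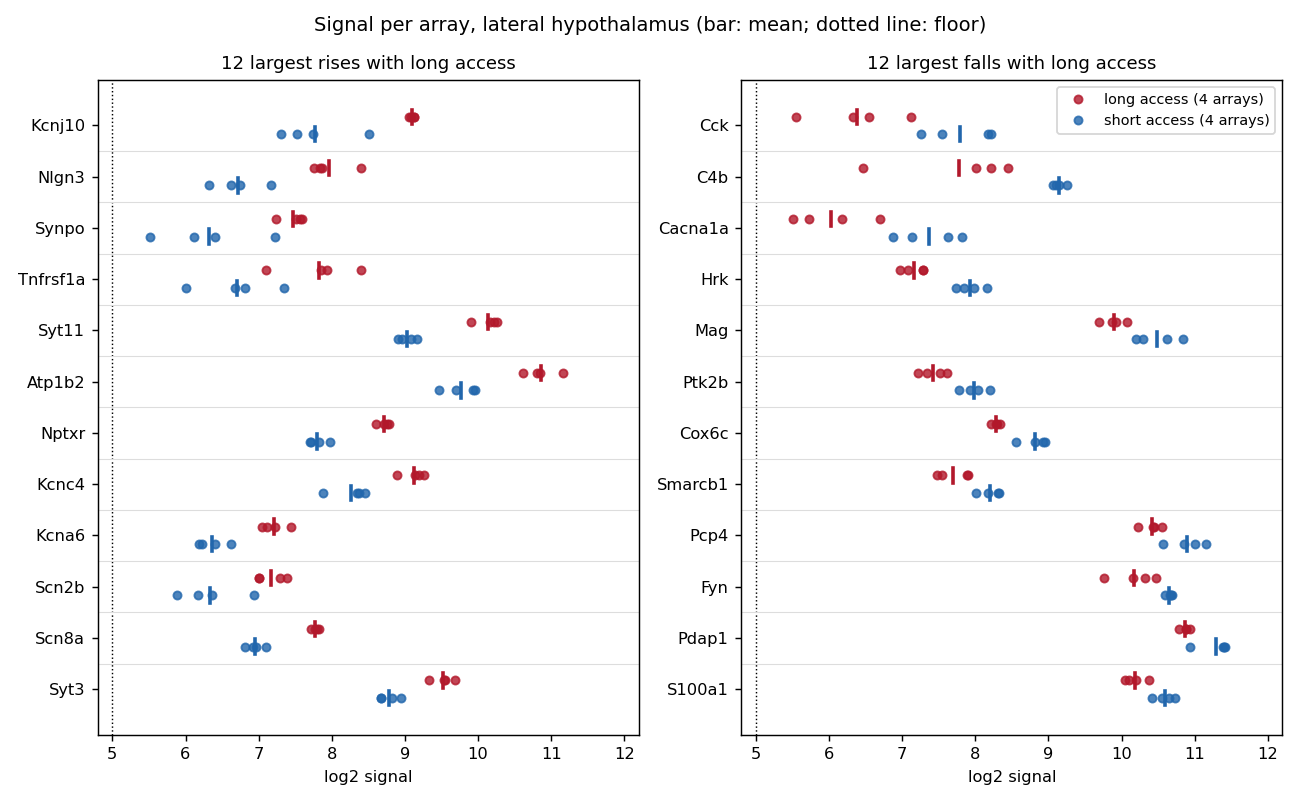
Log2 signal of every array for the 12 genes with the largest rises (left) and the 12 with the largest falls (right) among the calls; red points are the 4 long access arrays, blue points the 4 short access arrays, short bars the means and the dotted line the floor at 5. Of the 24 genes, Tnfrsf1a has overlapping groups, and Pdap1 shows 1 short access array near the long access arrays.

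Microtubule proteins followed the vesicle genes in part. Tau (Mapt), which stabilises axonal microtubules, had 12.36, 12.27, 12.30 and 12.35 in long access arrays, against 11.94, 12.01, 11.84 and 11.90 in short access arrays. It was higher by 0.40 ± 0.06 without overlap (adjusted p = 0.00346), but by 1 of its 3 probe sets, the others differing by -0.15 and -0.02 without passing. Map1a, which also binds microtubules, was higher by 0.40 ± 0.09 (adjusted p = 0.0164). Map2, its dendritic relative, passed by 1 of 5 probe sets (0.42 ± 0.12), and the tubulin Tubb5 was lower by 1 of 4 (-0.36 ± 0.10), and these calls were lost in 7 and 6 of the 8 left-out fits. By their brightest probe set, 2 of 9 cytoskeletal genes were higher, Map1a and Synpo, and none was lower, beside 31 higher and 17 lower of all 453 genes. With the replicate block the neurofilament gene Nefh was lower (adjusted p = 0.0409).

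Of 5 genes for glutamate uptake and packaging, 1 was higher by its brightest probe set, Glul, and none was lower, with the glial transporter Slc1a2 at 0.28 and the dehydrogenase Glud1 at -0.13 not passing. Of 15 genes for GABA synthesis, transport and receptors 1 was higher, Slc6a11, 1 was lower, Gabbr2, and 13 did not pass. All 453 genes taken by their brightest probe set gave 31 higher and 17 lower. Glutamine synthetase (Glul), which turns glutamate into glutamine, had 13.20, 13.17, 13.22 and 13.26 in long access arrays, against 12.88, 12.87, 12.85 and 12.85 in short access arrays. Although the rise was only 1.27-fold, the arrays of each group almost coincided (adjusted p = 0.00338). Another Glul probe set passed in the same direction (0.43 ± 0.08) and one differed by -0.21 ± 0.07 without passing (adjusted p = 0.0815). The astrocyte GABA transporter Slc6a11 was higher by 0.42 ± 0.11, the glial glutamate transporter Slc1a3 by 0.32 ± 0.09 and the neuronal one, Slc1a1, by 0.68 ± 0.19. These 3 calls were lost in 6, 6 and 7 of the 8 left-out fits, at an adjusted p of up to 0.0876, 0.110 and 0.117. The brightest probe sets of Slc1a3 and Slc1a1 differed by 0.09 and -0.22 and did not pass. Of 8 astrocyte markers tested, 2 were higher, Kcnj10 and Glul, and none was lower, with S100b at -0.12, Apoe at -0.32 and Vim at -0.46 not passing. With the replicate block 2 were higher and 2 lower, Apoe (adjusted p = 0.00682) and Vim (adjusted p = 0.0298). Their summed level was 15.57 to 15.89 in long access arrays and 15.73 to 16.02 in short access arrays, so the 2 ranges overlapped.

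Few transmitter receptor genes passed. Of all 453 genes taken by their brightest probe set, 31 were higher and 17 lower. Of 7 genes listed under NMDA receptors only Grina, a membrane protein, was higher by its brightest probe set (0.35 ± 0.08, adjusted p = 0.0164). Its other probe set, at 0.10 ± 0.07, did not pass (adjusted p = 0.354). The subunit Grin2d was higher by a dimmer probe set (0.51 ± 0.11, adjusted p = 0.0164), while its brightest, at 0.17, did not pass (adjusted p = 0.303). Grin2d had 8.42, 8.46, 8.50 and 8.28 in long access arrays, against 7.88, 7.95, 7.99 and 7.80 in short access arrays, with no overlap, and it was lost without short access replicate 4 (adjusted p = 0.0504). The GABA-B receptor subunit Gabbr2 was lower by -0.40 ± 0.11 (adjusted p = 0.0467), by 1 of 3 probe sets, and was lost in 6 of 8 left-out fits. None passed among 7 AMPA and kainate receptor genes, 5 metabotropic glutamate receptor genes, 18 monoamine genes, 8 acetylcholine genes, 8 purine and cannabinoid receptor genes and 7 receptors for peptides and hormones. The kainate receptor subunit Grik4 was at 8.17 ± 0.16 with long access and 8.59 ± 0.19 with short access (difference -0.43, adjusted p = 0.0577), and the metabotropic receptor Grm5 at 7.29 ± 0.22 with long access and 6.40 ± 0.67 with short access (difference 0.89, adjusted p = 0.0782). Under the replicate block Grik4 and the ATP receptor P2rx2 were lower (adjusted p = 0.0283 and 0.0236) and Grm5 was higher (adjusted p = 0.0298). Of 12 activity-induced genes none passed, with Fos at 0.20, Egr1 at -0.02 and Crem at 0.50.

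Survival genes moved in both directions. Bcl2l1, which holds back apoptosis, was higher by 2 of its probe sets, at 0.57 ± 0.11 and 0.52 ± 0.11 (adjusted p = 0.00897 and 0.0147). Another Bcl2l1 probe set, at 0.47 ± 0.16, did not pass (adjusted p = 0.0736). Its relative Bcl2l2 was higher by 0.47 ± 0.12, which was lost in 5 of 8 left-out fits. Harakiri (Hrk), a death-promoting protein that binds these, had 6.97, 7.29, 7.29 and 7.08 in long access arrays, against 8.16, 7.98, 7.73 and 7.85 in short access arrays. All long access arrays lay below all short access arrays, and Hrk was 1.71-fold lower (-0.77 ± 0.15, adjusted p = 0.00897), also with each array left out. Another Hrk probe set, at -0.63 ± 0.26, did not pass (adjusted p = 0.163), and its remaining ones were too dim to test. Fgfr1, a receptor for fibroblast growth factors, had 10.29, 10.29, 10.24 and 10.07 with long access, against 9.75, 9.74, 9.42 and 9.46 with short access. It was higher by both of its probe sets, 0.63 ± 0.10 and 0.47 ± 0.10, and the first held in all 8 left-out fits. Igf1r, the receptor for insulin-like growth factor, was higher by 0.70 ± 0.20 (adjusted p = 0.0490) and was lost in all 8. The tumour necrosis factor receptor Tnfrsf1a had 7.93, 7.85, 8.40 and 7.10 in long access arrays, against 6.82, 6.00, 6.68 and 7.34 in short access arrays. The groups overlapped, and its rise of 2.16-fold (adjusted p = 0.0453) was lost in 6 of 8. In all, 3 of 23 apoptosis, stress and mitochondrial genes were higher and 2 lower, and 2 of 25 growth factor genes were higher. Of all 453 genes 31 were higher and 17 lower. With the replicate block the first list had 3 higher and 6 lower, with Hspd1, Casp2, Bad and Mt3 the further falls. The growth factor list then had 3 higher and 1 lower, beside 44 and 41 of all 453 genes.

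Cholecystokinin (Cck), a peptide that signals satiety and is also a transmitter of cortical and midbrain neurons, had the largest fall. Its log2 signal was 6.32, 7.12, 5.55 and 6.54 in long access arrays, against 8.17, 7.54, 8.22 and 7.25 in short access arrays. Both groups were scattered, yet the highest long access array was below the lowest short access array. Cck was 2.67-fold lower with long access (-1.41 ± 0.32, adjusted p = 0.0217), and the call was lost without short access replicate 1 or 3 (adjusted p up to 0.0614). It was the only one of 11 hypothalamic peptide genes to pass, beside 31 higher and 17 lower of all 453 genes. Prodynorphin (Pdyn) differed by 0.36 (adjusted p = 0.0586), neuropeptide Y (Npy) by -0.48 (adjusted p = 0.0791) and somatostatin (Sst) by -0.45 (adjusted p = 0.0793). With the replicate block 2 peptide genes were higher, Pdyn and Tac1, and 4 were lower, Cck, Npy, Sst and Avp. Of 6 marker genes of cortex, hippocampus and striatum, in some of which Cck is abundant, Cck was the only one called by its brightest probe set, and their summed level overlapped, at 11.17 to 11.23 with long access and 11.19 to 11.44 with short access.

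Immune genes were represented among the falls by C4b and B2m. Complement component 4 (C4b), an innate immune protein that glia make and that tags synapses for removal, had 8.01, 8.21, 6.46 and 8.44 in long access arrays, against 9.15, 9.26, 9.10 and 9.06 in short access arrays. The short access arrays almost coincided, and long access replicate 3 was far below the other 3. C4b was 2.56-fold lower (-1.36 ± 0.34, adjusted p = 0.0320), and the call was lost in 5 of 8 left-out fits (adjusted p up to 0.0839), with the difference between -1.58 and -0.92. The class I chain B2m was lower by -0.37 ± 0.11 (adjusted p = 0.0490) and was lost in 7 of 8 (adjusted p up to 0.133). Among all 453 genes taken by their brightest probe set, 31 were higher and 17 lower. Of the 10 microglia and immune markers on the array 5 were bright enough to test, and of these 2 were lower, with C3 at -0.92, Il18 at -0.25 and Slc2a5 at 0.00 not passing. Their summed level was 11.01 to 11.49 in long access arrays, all below the 11.75 to 11.90 of short access arrays. This sum was set mainly by B2m, which averaged 10.92 with long access and 11.28 with short access. What part the number of immune cells has in it was not tested. The defining microglial integrin Itgam was too dim to test, at 6.34 with long access and 5.90 with short access. The bases before the start of C4b (chr20:4201729-4201978, plus strand), marked as above, are shown as those of the immune gene with the largest fall.
C4b: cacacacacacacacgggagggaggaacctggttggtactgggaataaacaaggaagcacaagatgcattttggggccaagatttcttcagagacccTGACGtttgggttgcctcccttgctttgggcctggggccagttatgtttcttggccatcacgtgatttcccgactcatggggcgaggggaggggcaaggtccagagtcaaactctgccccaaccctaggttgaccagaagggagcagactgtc
They hold no GC box and 1 TGACG, which stood in 6 of 16 promoters of lower genes (37.5%), 4 of 29 of higher genes (13.8%), 26.4% of those of all genes tested and 19.0% of all in the table. TATAAA stood in 3.45% of promoters of higher genes, 6.25% of lower genes and 6.88% of genes tested.

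Some myelin genes were slightly lower with long access. Transferrin (Tf), an iron carrier made by oligodendrocytes, had 13.05, 13.18, 13.11 and 13.13 in long access arrays, against 13.42, 13.56, 13.34 and 13.65 in short access arrays. It was lower by -0.38 ± 0.07 without overlap (adjusted p = 0.0115), also with each array left out, and by another probe set at -0.28 ± 0.06, while its last probe set did not pass (adjusted p = 0.998). Cnp, an enzyme of myelin sheaths, was lower by -0.27 ± 0.07 (adjusted p = 0.0436) and was lost in 6 of 8 left-out fits (adjusted p up to 0.110). The myelin-associated glycoprotein Mag was 1.51-fold lower by 1 probe set (adjusted p = 0.0235), which was lost in 4 of 8, and did not pass by its other 2, at -0.11 and 0.04. Myelin basic protein (Mbp) at -0.19 and Mog at -0.11 did not pass, though Mbp was lower with the replicate block (adjusted p = 0.0196). Of 6 oligodendrocyte markers 2 were lower and none higher, beside 17 lower and 31 higher of all 453 genes. None of the 6 was at the floor. Their summed level was 15.32 to 15.52 in long access arrays, all below the 15.53 to 15.75 of short access arrays. Enpp2, which is made by choroid plexus and oligodendrocytes, was lower by both of its probe sets (-0.25 and -0.26, adjusted p = 0.0490 each), and the call was lost in all 8 left-out fits. The other choroid plexus marker tested, the serotonin receptor Htr2c, was at 0.42 without passing, so that the median of the 2 was 0.09. Their summed level, set mainly by the brighter Enpp2, was 11.16 to 11.31 with long access and 11.33 to 11.48 with short access. What part a different share of white matter or of ventricle lining in the dissected pieces has in these differences was not tested.

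The summed levels of the other cell type lists overlapped between the groups. This held for 5 vessel and meningeal markers, 3 dopamine neuron markers, 5 magnocellular neuron markers and 6 genes listed for the lateral hypothalamus, of which none passed. The magnocellular and lateral hypothalamus lists share Oxt, Avp, Gal and Nnat. The orexin and melanin-concentrating hormone precursors were not among the 6, so their level does not show how much of the lateral part each piece held. With the replicate block 1 magnocellular marker was higher, Pdyn, and 1 lower, Avp, and 2 lateral hypothalamus markers were lower, Sst and Avp. Of 10 pan-neuronal markers 3 were higher (Rab3a, Syp and Syn1) and 1 was lower (Gap43), beside 31 higher and 17 lower of all 453 genes. The summed level of the 10 was 15.18 to 15.26 in long access arrays and 15.18 to 15.21 in short access arrays. Neurofilament light (Nefl) at 0.01, Eno2 at -0.15 and Snap25 at 0.17 did not pass.

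**Figure D3:**
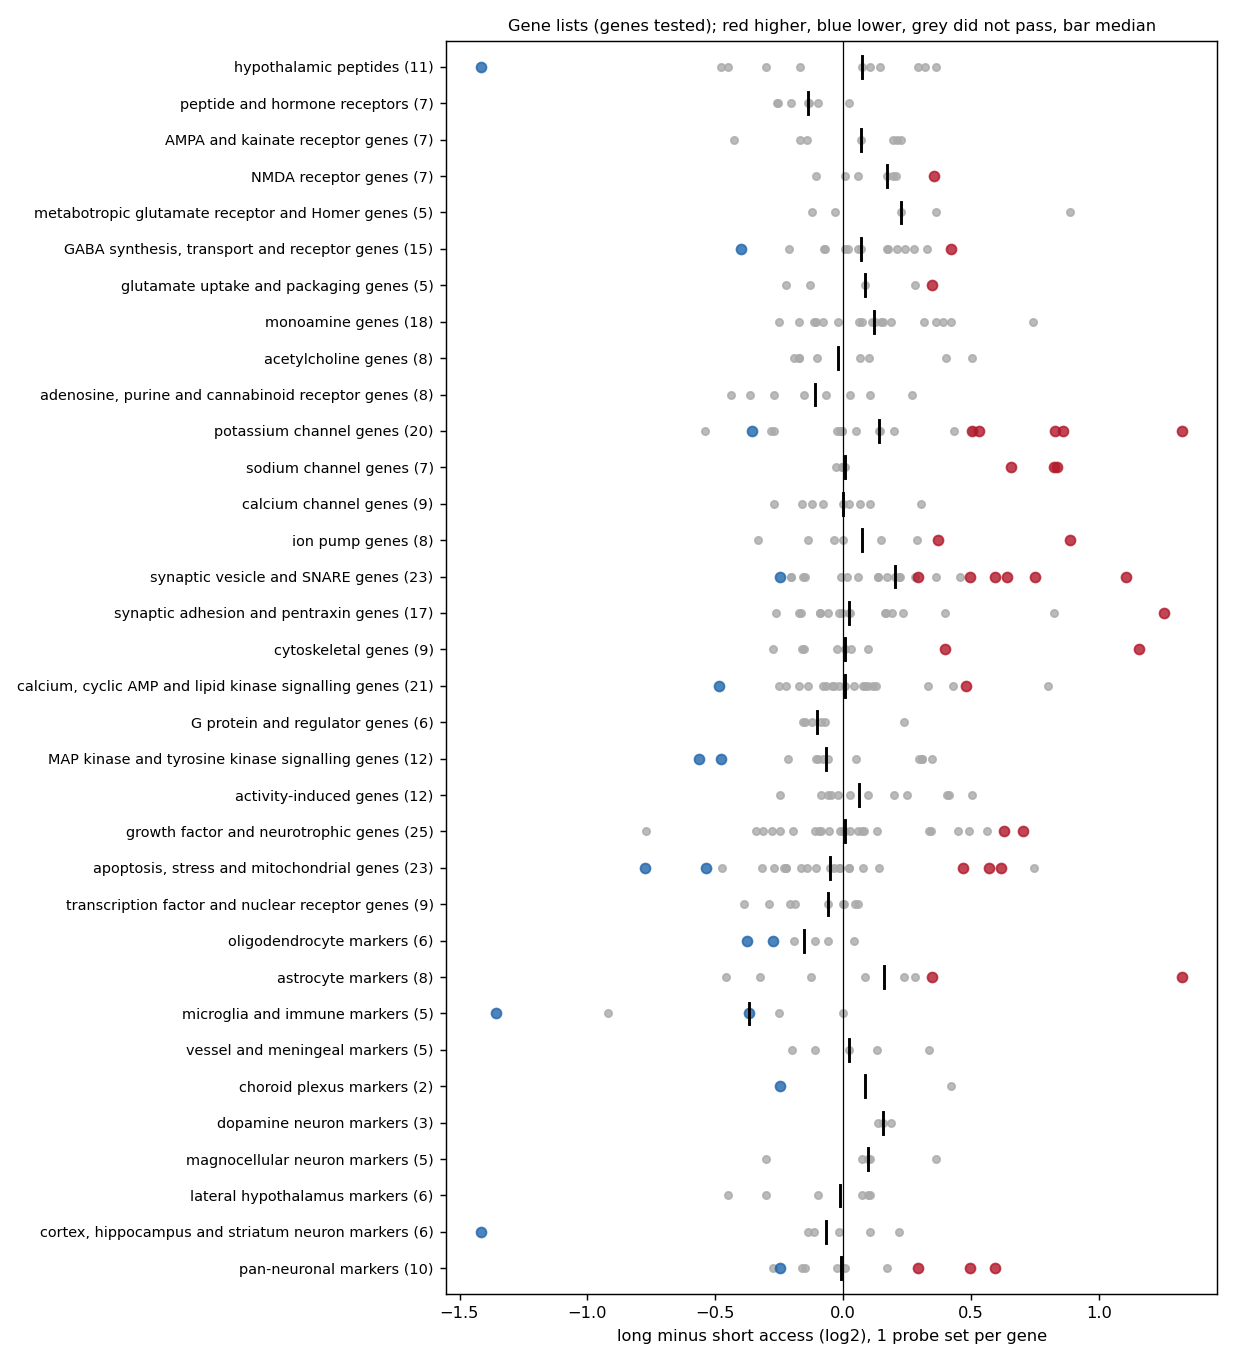
Difference of long minus short access (log2) for every gene tested in each list, 1 probe set per gene, with the number of genes in brackets. Red is higher and blue lower at an adjusted p under 0.05, grey did not pass, and the black bar is the list's median, which is 0.20 for synaptic vesicle and SNARE genes and -0.37 for microglia and immune markers.

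The remaining falls included genes for a calcium channel, kinases, calcium-binding proteins and a mitochondrial subunit. The pore subunit of the P/Q calcium channel (Cacna1a) had 6.17, 5.72, 6.69 and 5.51 in long access arrays, against 7.82, 7.62, 6.87 and 7.13 in short access arrays. The groups did not overlap and the fall was 2.53-fold (-1.34 ± 0.29, adjusted p = 0.0174), but it rests on a dim probe set, and the other 2 tested for the gene differed by -0.23 and -0.08 and did not pass. It was lost without long access replicate 2 (adjusted p = 0.0537), and in 3 of the left-out fits the probe set was too dim to test. The tyrosine kinases Ptk2b, which responds to calcium, and Fyn, which acts on NMDA receptors and in myelination, were 1.48-fold and 1.39-fold lower (adjusted p = 0.0351 and 0.0453). Another Ptk2b probe set, too dim to test, went the other way, at 6.57 with long access and 5.37 with short access. Ptk2b and Fyn were the 2 lower of 12 MAP kinase and tyrosine kinase genes, and none of the 12 was higher by its brightest probe set. Over all 453 genes taken this way 17 were lower and 31 higher. The stress kinase Mapk14 was higher by 2 dimmer probe sets, at 0.72 ± 0.17 and 0.68 ± 0.18. Its other tested probe sets, at 0.29, -0.12 and -0.09, did not pass. With the replicate block 1 of the 12 was higher, Mapk9, and 3 were lower, Map2k2 among them. Pcp4, which speeds calcium exchange on calmodulin, had 10.44, 10.43, 10.22 and 10.55 with long access, against 11.01, 10.57, 11.15 and 10.86 with short access, and was 1.40-fold lower (adjusted p = 0.0325). The calcium-binding protein S100a1 was 1.33-fold lower (adjusted p = 0.0281), by 1 of 2 probe sets. Pcp4 was the only gene lower among 21 calcium, cyclic AMP and lipid kinase genes, of which 1 was higher, Itpkb, and with the replicate block 3 were higher and 2 lower. Cox6c, a subunit of the mitochondrial cytochrome oxidase, had 8.34, 8.21, 8.29 and 8.28 in long access arrays, against 8.55, 8.95, 8.93 and 8.82 in short access arrays. It was 1.45-fold lower without overlap (adjusted p = 0.0164), and of the genes in this paragraph it alone passed in all 8 left-out fits. Smarcb1, a chromatin remodelling subunit, was 1.42-fold lower (adjusted p = 0.0467), though a brighter probe set, at -0.21, did not pass (adjusted p = 0.194). Pdap1, a phosphoprotein that binds platelet-derived growth factor, was 1.34-fold lower (adjusted p = 0.0354). The G protein subunits gave mixed values. Gnas was lower by -0.23 ± 0.06, while a brighter probe set, at -0.16, did not pass (adjusted p = 0.320). Gnb1 was higher by 0.43 ± 0.10 with 1 probe set and lower by -0.37 ± 0.11 with another, so that no direction can be given for Gnb1.

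The no access arrays place these levels on the scale of daily access, with no test since the genes were chosen on the other 8 arrays. Of the 48 higher calls, the no access mean lay between the other 2 means for 27, below both for 17 and above both for 4. Of the 29 lower calls it lay between them for 14, below both for 8 and above both for 7. The means thus followed the hours of access for those 17 higher and those 7 lower calls. For the 27 higher calls the mean at 1 h was the lowest, and for the 14 lower calls it was the highest. Nlgn3 averaged 6.01 ± 0.74, 6.71 ± 0.35 and 7.97 ± 0.29 at 0, 1 and 6 h, and Kcnj10 8.19 ± 0.14, 7.77 ± 0.53 and 9.10 ± 0.04. Cck averaged 8.54 ± 0.19, 7.80 ± 0.47 and 6.38 ± 0.65 at 0, 1 and 6 h, so that its means followed the hours of access. Synpo, like Kcnj10 and Tnfrsf1a, had its lowest mean at 1 h, with 7.42 ± 0.73 at 0 h, 6.32 ± 0.71 at 1 h and 7.48 ± 0.16 at 6 h. Hrk, like C4b and Cacna1a, had its highest mean at 1 h, 7.93 ± 0.18, beside 7.29 ± 0.35 at 0 h and 7.16 ± 0.16 at 6 h. The antisense control probe sets averaged 6.75 ± 0.15 on long access and 6.84 ± 0.17 on short access arrays, below the 8.13 ± 0.21 of no access arrays, and what part such array differences have in the no access levels was not tested.

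**Figure D4:**
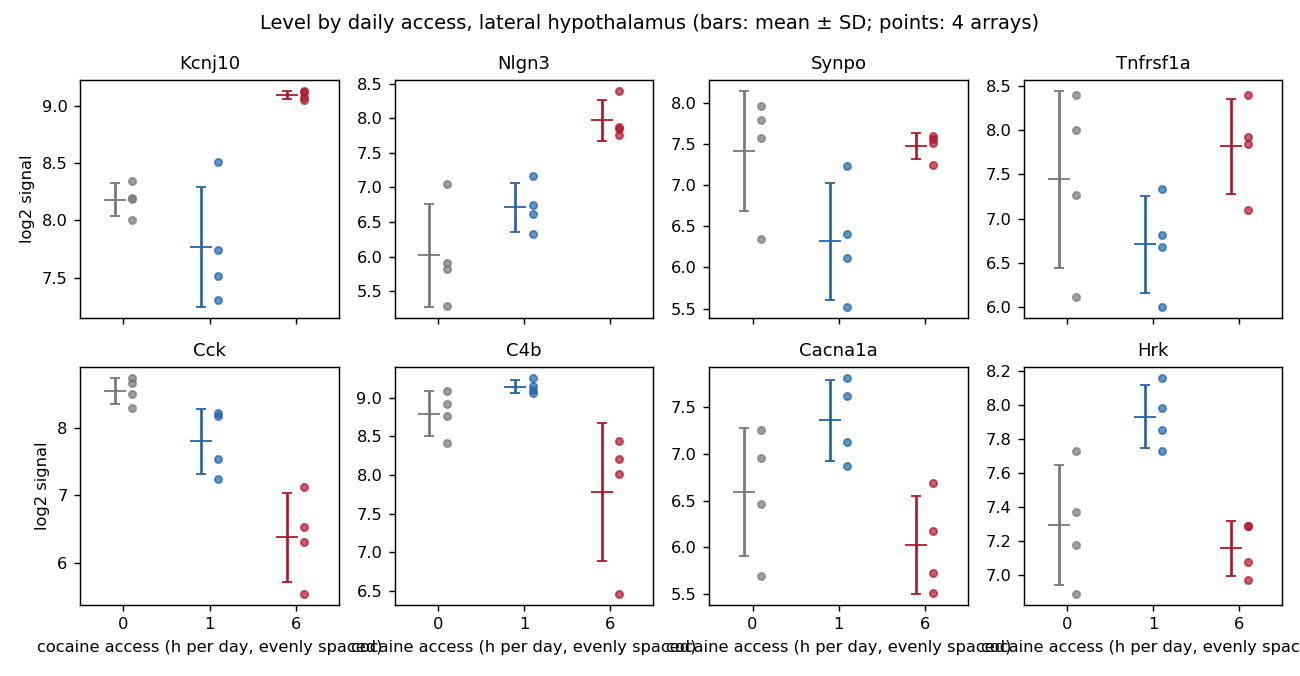
Log2 signal at 0, 1 and 6 h of daily access (evenly spaced on the axis) for the 4 genes with the largest rises and the 4 with the largest falls between long and short access; points are 4 arrays per group, and the bars are means ± SD. Nlgn3 rises and Cck falls with the hours of access. Kcnj10, Synpo and Tnfrsf1a have their lowest mean at 1 h, and C4b, Cacna1a and Hrk their highest.

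Whether these differences were larger than in the other 5 regions was tested directly. A test of long minus short access in the lateral hypothalamus against the mean of the other 5 regions, in 1 limma fit of 42 arrays, called 0 of 719 probe sets (0%), with 61 at an unadjusted p under 0.05. The smallest p belonged to Syp, higher by 0.49 in the lateral hypothalamus and by 0.03 in the mean of the others, a difference of 0.47 ± 0.11 (adjusted p = 0.0672). Hrk followed, at -0.77 in the lateral hypothalamus and -0.04 in the others (difference -0.73 ± 0.18, adjusted p = 0.0763). Mapt differed by 0.56 ± 0.14 (adjusted p = 0.100) and Cox6c by -0.56 ± 0.15 (adjusted p = 0.101). With the replicate block 10 probe sets were called, with array weights 64, and without the medial prefrontal cortex 8. The median standard error was 0.14 in the lateral hypothalamus and 0.284 in that cortex, where it was the largest of the 6 regions.

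The other regions were also fitted alone, with 4 arrays per group in the amygdala and nucleus accumbens and 3 in the others. Long against short access called 0 probe sets in the amygdala (23 at an unadjusted p under 0.05), the medial prefrontal cortex (0) and the nucleus accumbens (63), 9 in the septum and 15 in the ventral tegmental area (limma). Of the lateral hypothalamus calls, Fgfr1 was also higher in the septum, by 0.41 ± 0.08 (adjusted p = 0.0346). In the ventral tegmental area both Gnb1 probe sets were higher, by 0.87 ± 0.16 and 0.59 ± 0.13, beside 1 unnamed probe set, though the Gnb1 probe sets had opposite directions in the lateral hypothalamus. Among the 48 higher calls, long access was above short access for 31 in the amygdala, 26 in the medial prefrontal cortex, 21 in the nucleus accumbens, 32 in the septum and 35 in the ventral tegmental area. Over all probe sets tested the shares above 0 there were 57.7%, 52.7%, 47.7%, 51.9% and 51.2%. Among the 29 lower calls 22, 19, 15, 18 and 16 were below 0 in these regions, beside 42%, 46.7%, 52%, 48% and 48.5% of all. Cck differed by -0.15 in the amygdala, 0.15 in the medial prefrontal cortex, -0.47 in the nucleus accumbens, -0.01 in the septum and -0.17 in the ventral tegmental area. Kcnj10 was at 1.05 ± 0.74 in the amygdala, where the spread was wide, and at -0.59, 0.31, 0.41 and 0.17 in the medial prefrontal cortex, nucleus accumbens, septum and ventral tegmental area.

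**Figure D5:**
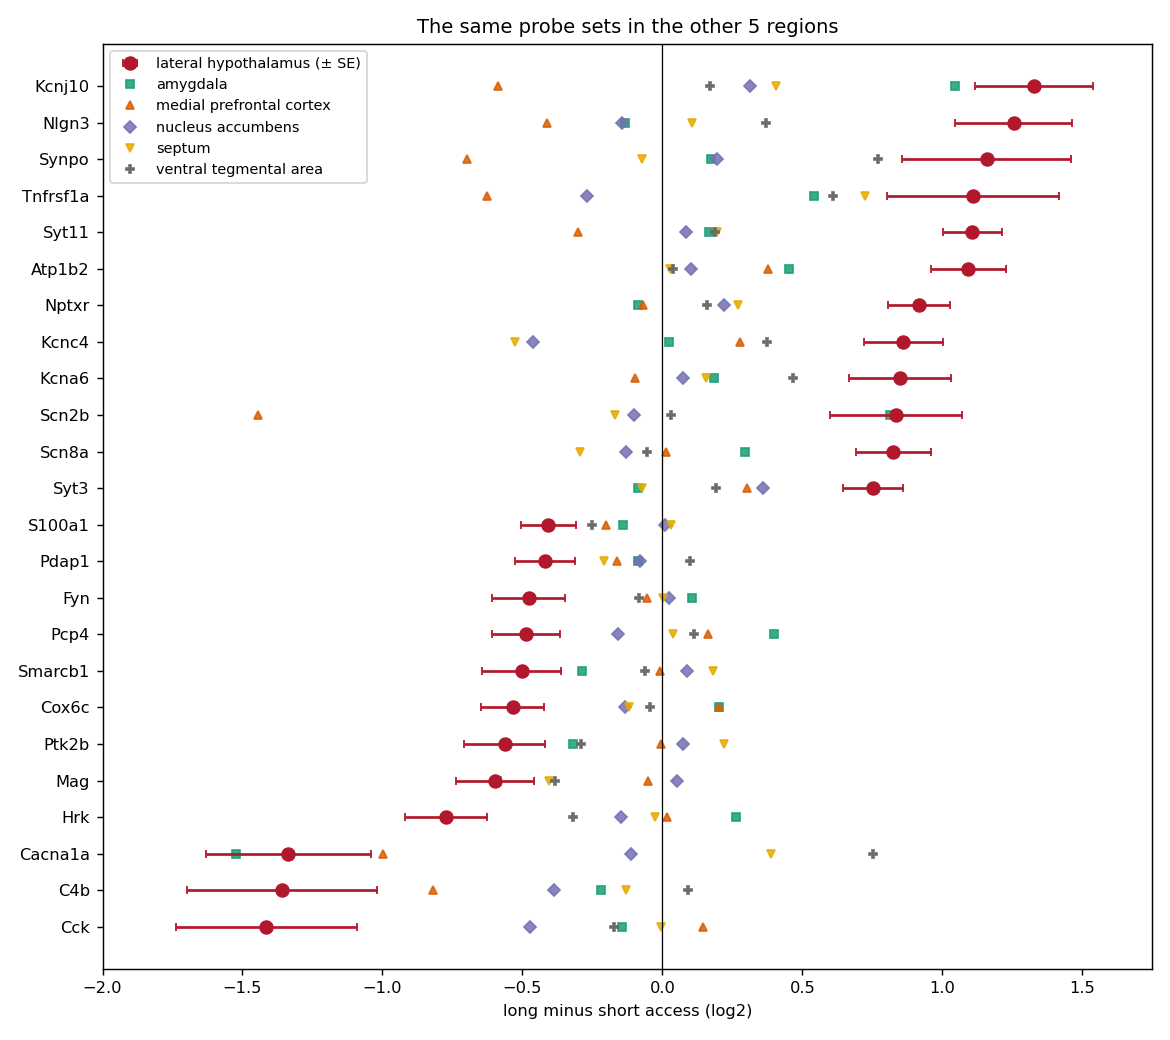
Difference of long minus short access (log2) for the 12 genes with the largest rises and the 12 with the largest falls, in the lateral hypothalamus (red, ± SE) and, by the same probe set, in each of the other 5 regions. Cck lies at -1.41 in the lateral hypothalamus and between -0.47 and 0.15 elsewhere.

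Among the 544 probe sets too dim to test, 148 were at the floor on all 8 arrays. In 23 of the 544 the groups did not overlap, which is given with no test. Among the 719 tested this held for 68 with long access on top (9.46%) and for 61 with it below (8.48%). Most of the dim ones with a gene name were higher with long access. Corticotropin-releasing hormone (Crh), the stress peptide, had 6.25, 6.07, 6.29 and 6.04 in long access arrays, against 5.84, 5.84, 5.85 and 5.78 in short access arrays. The AMPA receptor subunit Gria1 had 6.00, 6.13, 6.08 and 6.22 with long access by a dim probe set, against 7.04, 7.06, 6.66 and 7.01 with short access. The neuropeptide Y receptor Npy1r had 6.59, 7.14, 7.11 and 6.90 with long access, against 6.04, 6.57, 6.53 and 6.12 with short access. Crh and Npy1r were thus higher on every long access array, Npy1r narrowly (6.59 against 6.57), and Gria1 was lower by its dim probe set. All of these probe sets had a mean signal under the limit of 100. The brightest Gria1 probe set differed by -0.14 ± 0.12 with overlapping groups and did not pass (adjusted p = 0.487). These 3 genes were chosen after their values were seen.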

How the data were processed

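Affymetrix Rat Neurobiology U34 arrays were hybridised with biotinylated cRNA of dissected tissue, per the labels' protocols. The deposited values are intensity per probe set on a linear scale, summarised with MAS5 per the submitters' processing notes; its version, scaling target and detection calls are not given in the sources used here. The deposited 2% trimmed mean was 251.2 to 251.3 on the 8 arrays, and no 2 arrays were identical. The signals were multiplied so that the 2% trimmed mean of the 1263 non-control probe sets was 500 on every array, floored at 32 and put on a log2 scale. Probe sets with a mean of at least log2(100) over the 8 arrays were tested with limma 3.58.1 in R 4.3.3 (lmFit, eBayes with an intensity trend, Benjamini-Hochberg, threshold 0.05). A fold change is between means of log2 signals and is understated near background; the number of arrays limits the precision. In simulated data on 719 probe sets the fit found 71.7% of 106 true changes of 0.5 and 91.5% of 94 true changes of 1 (log2). These changes made up a larger share of the probe sets than the 10.7% called in the data, so the shares found may not hold there. Of the 1263 probe sets 1137 had 1 symbol in GEO's platform annotation, 8 had several and 118 none; 1132 matched RefSeq by Entrez identifier. Suffixes that mark possible cross-hybridisation stood on 35 of the 77 calls and on 330 of the 719 tested.

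The genes and lists were chosen with earlier results of these data known. Named in full were the 12 largest rises and the 12 largest falls among calls; any other call may be named, a gene once, by its smallest p. Same-numbered long and short access arrays deviated together from their group means in 4 of 4 pairs (r = 0.347, 0.122, 0.199 and 0.184), so the replicate block counts as a paired fit; this rests on the data, and no label states a shared rat, batch or day. Other settings tried were unscaled deposited values, quantile normalization, changes to the floor, filter and trend, weighted arrays, leaving out probe sets that may cross-hybridise, the replicate block, 2 covariates, wider sets of arrays, a 1.5-fold limit and each array left out.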

Additional observations from a re-analysis of the deposited data

Results flagged for a closer look

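Among 48 groups of 4 arrays examined, the long and the short access arrays of the 24 genes with the largest differences, 1 had an array far from the other 3. Pdap1 lay between 10.79 and 10.93 on the 4 long access arrays and between 11.39 and 11.42 on 3 short access arrays, while short access replicate 4 was at 10.94. Of 12 groups of array measures 2 had such an array. The mean log2 signal of the antisense control probe sets was 7.09 on short access replicate 4, beside 6.73 to 6.79 on the other 3 short access arrays. The median signal was 159.4 on long access replicate 3, beside 136.2 to 139.0 on the other 3 long access arrays. About 1 group in 20 is picked out by chance with this rule.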

How the results depend on the processing

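Of 719 probe sets, 77 passed for long against short access. Quantile normalization gave 46 calls, no filter on dim probe sets 40, no intensity trend 39, no cross-hybridising probe sets 41, the spike-in level as a covariate 34, all 63 arrays in 1 fit 13, and a further limit of 1.5-fold 31. The actin ratio as a covariate gave 0 (limma, 111 at an unadjusted p under 0.05), and the replicate block, which pairs arrays of the same number, gave 135. Leaving out 1 array gave 36 to 64. The values as deposited, no floor, a mean signal of at least 200, array weights and the 12 arrays of the region gave 64 to 77. Over these settings 1312 values of the 62 called genes were recomputed; 764 stayed past the threshold in the same direction, 548 no longer passed and 0 turned round. In every left-out fit that was run 21 genes passed, 18 higher and 3 lower (Hrk, Cox6c and Tf). The difference between regions, with 0 calls (limma, 61 at an unadjusted p under 0.05), gave 1 with the values as deposited, 3 with quantile normalization, 4 with no filter, 1 with a mean signal of at least 200, 64 with array weights, 1 with no cross-hybridising probe sets, 10 with the replicate block, 8 without the medial prefrontal cortex (chosen after seeing the data), and 0 with no floor, no trend or any lateral hypothalamus array left out. The 6 array measures stayed on their side of the threshold. The causes of these changes were not tested. The median over all probe sets tested was 0.02, 0.03 with the values as deposited and -0.02 with quantile normalization, and 8 list medians changed sign with quantile normalization, those of AMPA and kainate receptors, sodium channels, calcium channels, adhesion, cytoskeletal, activity-induced, growth factor and vessel genes.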
